A study of Drosophila melanogaster with 6 samples.

Results

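Translation initiation and elongation factors were examined in wing imaginal discs of Drosophila melanogaster larvae that overexpressed Yki, with and without RNA interference (RNAi) against pan. They were taken as every array feature with a single gene symbol that starts with eIF or eEF in current FlyBase naming, which gave 38 genes of 11303 features tested. Of 52 such symbols in a RefSeq gene table, 38 were matched and 14, among them eIF2alpha, eIF2gamma, eIF1A, eEF1alpha1 and eEF2, were not analysed here. The genes comprised eIF1, the beta subunit of eIF2, all 5 subunits of eIF2B, eIF2A and eIF2D, 14 eIF3 genes, 7 eIF4 genes, eIF5 and eIF5B, eIF6, 3 eEF1 genes, eEF5 and eEFSec.

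Total RNA was labelled with biotin and hybridised to 6 single-channel arrays. In the 3 samples of the pan RNAi group (ap>YAP/Yki+dTcf/Pan-RNAi), the apterous driver expressed Yki, the transcriptional effector of the Hippo pathway, along with an RNAi construct for pan, the gene of dTcf, through which Wnt signalling acts on DNA. In the 3 samples of the Yki group (ap>YAP/Yki), the same driver expressed Yki alone. All discs were dissected 7 days after transgene induction, so both groups carry the driver and the Yki overexpression, and the comparison asks what pan RNAi changes in discs that overexpress Yki. The driver is active in dorsal cells, whereas the RNA came from wing disc tissue as a whole, and in such bulk RNA fewer cells of a type and less RNA per cell cannot be told apart. Discs that lack Yki overexpression or carry a control RNAi construct are not among the samples, and pan itself was not analysed here.

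Initiation factors place the start codon and the initiator tRNA on the ribosome. eIF2 brings the initiator tRNA as a GTP complex, eIF2B reloads eIF2 with GTP, eIF3 is the large scaffold on the small ribosomal subunit, and the eIF4 factors recognise and unwind the capped end of the mRNA. eIF5 triggers GTP hydrolysis on eIF2, and eIF5B joins the ribosomal subunits. Elongation factor eEF1 then delivers aminoacyl-tRNA, and eEF2 moves the ribosome along. Growing imaginal discs depend on this machinery, and the TOR pathway is its main input from nutrients.

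Levels are the deposited log2 values, with n = 3 arrays in each group. Changes are pan RNAi minus Yki on the log2 scale with the SE of a limma fit over all features. "Rose" and "fell" are used of genes whose adjusted p was under 0.05, whatever the size of the change. The number of arrays limits the precision. Array means ran from 8.516 to 8.524, and arrays correlated at 0.994 to 0.996 within groups and at 0.980 to 0.986 between them. Of the wing disc genes ap, nub, vg, tsh, ci, hh, en and ptc, every one was measured with a mean level of at least 9.62. They moved with the groups too, 4 of the 8 higher and 2 lower, with tsh at 1.06 ± 0.07 and nub at −1.12 ± 0.09 the largest changes. Some markers of other cell types moved with the groups as well. Of all features, 12.1% were higher and 13.4% lower, and the lists were not tested against these shares. The mean level of 7 myoblast markers was 8.50 to 8.54 in pan RNAi arrays and 8.93 to 9.01 in Yki arrays. Of the 7, 5 were lower and 2 higher, from zfh1 at −1.41 ± 0.07 to sns at 1.53 ± 0.04. The mean level of 8 tracheal markers was 9.70 to 9.77 in pan RNAi arrays and 10.07 to 10.15 in Yki arrays, with 5 lower. Of 8 haemocyte markers 4 were higher and 1 lower, from Ppn at −1.81 ± 0.08 to Sr-CI at 0.98 ± 0.19. Their mean levels were 7.64 to 7.77 in pan RNAi arrays and 7.50 to 7.67 in Yki arrays. Of 8 neuron and glia markers 1 was higher and 1 lower, near the shares of all features (7.74 to 7.80 in pan RNAi arrays against 7.79 to 7.83 in Yki arrays). Of 8 fat body markers 3 were measured and 0 passed the test. Their mean levels were 7.95 to 8.11 in pan RNAi arrays and 8.10 to 8.75 in Yki arrays. The 8.75 was in Yki replicate 3, where Lsp2 was at 8.81, against 7.74 and 7.08 in Yki replicates 1 and 2. In the limma fit, 2 of the 3 had an unadjusted p under 0.05, as did 4470 of the 11303 features. No marker is listed at 0, but the lowest value in the data is 2.74, so this does not show that a cell type was present. Several markers were dim, with a mean under 7, such as htl (6.97), He (6.58), bnl (6.48) and nSyb (6.13). The part of these cell types in the results was not tested.

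Most translation factor genes were at closely similar levels in both groups, and the changes that passed the test were small apart from that of eEF1alpha2. Of the 38 genes, 8 fell (eEF1alpha2, eIF3j, eIF2Balpha, eIF2Bbeta, eIF2beta, eIF3k, eEF1delta and eIF5) and 1 rose (eIF2Bdelta). The called share among members was 23.7%, against 25.5% of all features, so members passed the test about as often as features in general. By direction, 21.1% of members were lower, against 13.4% of all features, and 2.63% were higher, against 12.1% of all features. With arrays centred on their medians, 3 of the 38 members were lower and 1 higher, while 9.61% of all features were lower and 18.5% higher. The share of lower members was then no longer above that of all features. It was above with quantile normalization, where 6 of the 38 members and 12.1% of all features were lower. The median change was −0.07 over the members and 0.03 over all features. With a minimum change of 2-fold beside the adjusted p, eEF1alpha2 alone was left, against 1.53% of all features.

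**Figure D1:**
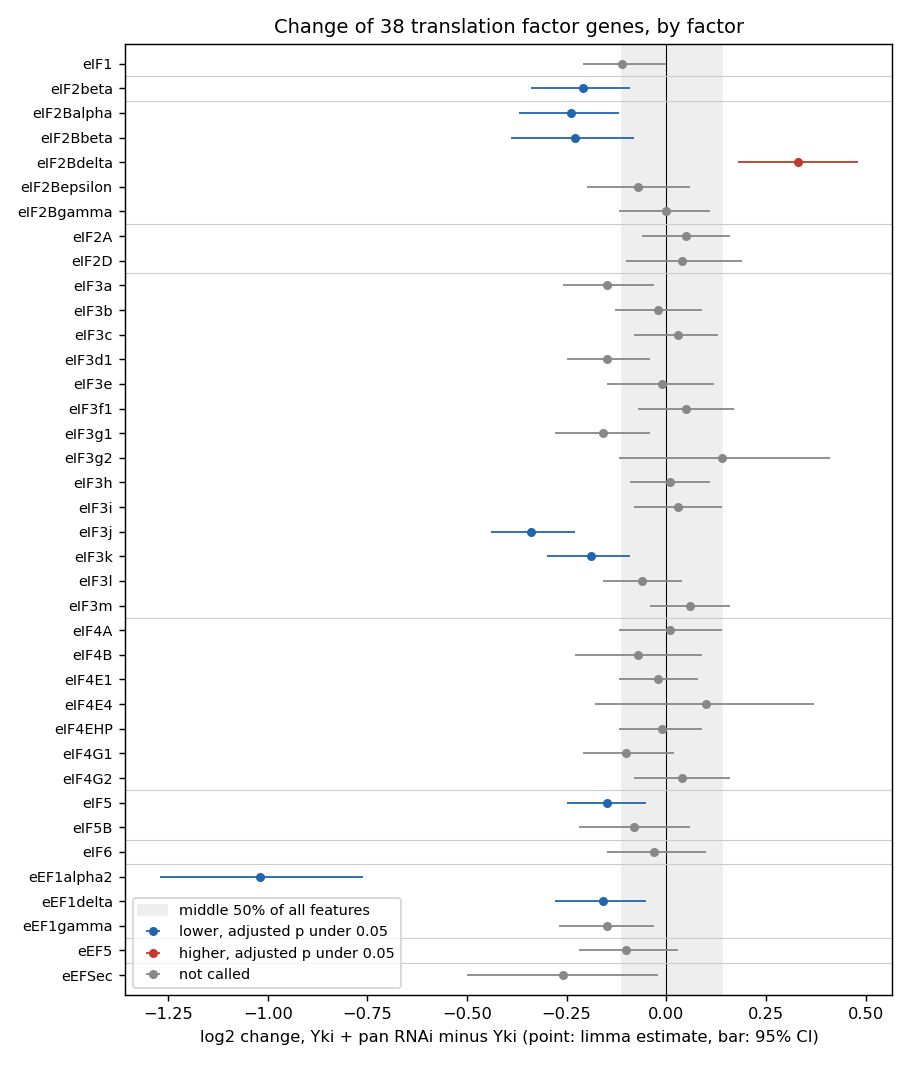
Change of each of the 38 genes in pan RNAi discs relative to Yki discs, on the log2 scale, with points for the limma estimates and bars for the 95% confidence intervals, ordered by factor. The estimates lie between −0.34 and 0.33 except for eEF1alpha2 at −1.02.

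The calls differed in how firmly they stood. Those of eEF1alpha2, eIF3j and eIF2Bdelta were made under each of 11 alternative settings, and that of eIF2Balpha under 10 of them. The other 5 lost their call under at least 7 of the 11. The count of members that fell was 3 without Yki replicate 2, 3 without Yki replicate 3, 3 without pan RNAi replicate 1, 2 without pan RNAi replicate 2 and 3 without pan RNAi replicate 3. Falls over all 11303 features became fewer too, with 1026, 1001, 979, 1169 and 1220 in the same order, against 1518 as reported. The member count was 13 when the variance was modelled with an intensity trend and robust settings, under which 15.3% of all features fell and 13.4% rose. All 9 called genes kept their sign under every alternative.

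**Figure D2:**
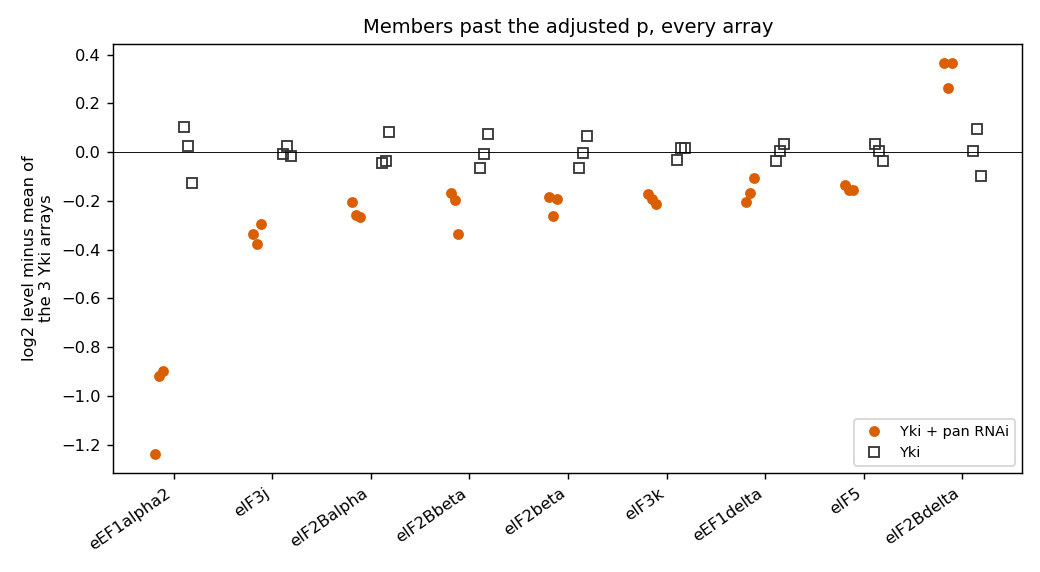
Level of the 9 called genes in every array, as the log2 level minus the mean of the 3 Yki arrays, with filled circles for pan RNAi and open squares for Yki. The groups do not overlap for any of the 9 genes, and only eIF2Bdelta lies higher with pan RNAi.

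The groups did not overlap for 19 members, 17 of them lower and 2 higher with pan RNAi, against 44.9% of all features, 21.6% of which were lower and 23.4% higher. The members were also measured tightly. Their median SE was 0.051, against 0.065 for all features, and 35 of 38 had a mean level above the median of all features, 8.48. Of the 29 members that did not pass the test, 26 had a 95% confidence interval inside −0.3 to 0.3. The exceptions were the dim genes eIF3g2 and eIF4E4, and eEFSec, whose mean level was 7.41.

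Among elongation factors, eEF1alpha2 had by far the largest change of any member. This gene encodes a form of eEF1A, the GTPase that carries aminoacyl-tRNA to the ribosome. Its level was 8.97, 9.29 and 9.31 in pan RNAi arrays, against 10.31, 10.23 and 10.08 in Yki arrays. All pan RNAi arrays lay below all Yki arrays, and replicate 1 was the lowest. The gene fell 2.02-fold (−1.02 ± 0.11, adjusted p = 0.00149). Leaving out any 1 array gave changes of −1.08 to −0.91. The protein-coding sequence of eEF1alpha2 is close to that of its paralogue eEF1alpha1, and how far the feature separates them was not tested. Markers of the wing disc, haemocytes, myoblasts and trachea changed in both directions or in 1, as given above. Whether cell types had a part in this fall was not tested.

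The other measured eEF1 genes encode subunits of the exchange factor that reloads eEF1A with GTP. eEF1delta was at 10.46, 10.50 and 10.56 in pan RNAi arrays and at 10.63, 10.67 and 10.70 in Yki arrays. The groups were separate but close, and the fall was −0.16 ± 0.05 (adjusted p = 0.0495). eEF1gamma was at 12.01, 12.06 and 11.93 in pan RNAi arrays and at 12.16, 12.11 and 12.18 in Yki arrays, a change of −0.15 ± 0.05 that did not pass (adjusted p = 0.0785). Within each array, the log2 difference of eEF1alpha2 minus the mean of these 2 genes was −2.26, −1.99 and −1.94 in pan RNAi arrays and −1.09, −1.16 and −1.36 in Yki arrays. The shift of −0.86 shows an unequal change, which an offset shared by all genes of an array does not affect. It was computed after the values were seen, with no test. eEF5, the fly eIF5A, which helps ribosomes past stalling sequences, was at 12.54, 12.49 and 12.41 in pan RNAi arrays and at 12.54, 12.58 and 12.61 in Yki arrays (−0.10 ± 0.05, adjusted p = 0.21). eEFSec, the factor for selenocysteine, was at 7.42, 7.06 and 7.35 in pan RNAi arrays and at 7.47, 7.50 and 7.64 in Yki arrays (−0.26 ± 0.10, adjusted p = 0.103).

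eIF2beta, a subunit of eIF2 that contacts both eIF5 and eIF2B, was at 12.13, 12.05 and 12.12 in pan RNAi arrays and at 12.25, 12.31 and 12.38 in Yki arrays, a fall of −0.21 ± 0.05 (adjusted p = 0.0273). The groups did not overlap. eIF5, the GTPase activator of eIF2, was at 11.03, 11.01 and 11.01 with pan RNAi and at 11.20, 11.17 and 11.13 in Yki arrays. Its fall of −0.15 ± 0.04 (adjusted p = 0.0403) was the smallest of the 9 called changes. eIF1, which guards start codon choice, was at 12.35, 12.41 and 12.41 in pan RNAi arrays and at 12.51, 12.46 and 12.53 in Yki arrays (−0.11 ± 0.05, adjusted p = 0.129). The groups overlapped for the alternative tRNA-binding factors. eIF2A was at 10.80, 10.85 and 10.75 with pan RNAi and at 10.78, 10.72 and 10.74 in Yki arrays (adjusted p = 0.486), and eIF2D changed by 0.04 ± 0.06. eIF5B changed by −0.08 ± 0.06 (adjusted p = 0.329). eIF6, which keeps free large subunits apart from small ones, was at 10.26, 10.21 and 10.21 with pan RNAi and at 10.26, 10.18 and 10.32 in Yki arrays (adjusted p = 0.744).

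Of the 5 subunits of eIF2B, 2 fell, 1 rose and 2 did not pass the test, against 13.4% of all features lower and 12.1% higher. The regulatory subunit gene eIF2Bdelta was at 9.67, 9.57 and 9.67 in pan RNAi arrays, against 9.31, 9.40 and 9.21 in Yki arrays. Every pan RNAi array was above every Yki array, and the gene rose 1.26-fold (0.33 ± 0.06, adjusted p = 0.0108). The other regulatory subunit genes, eIF2Balpha and eIF2Bbeta, fell. eIF2Balpha was at 10.00, 9.95 and 9.94 with pan RNAi and at 10.16, 10.17 and 10.29 in Yki arrays (−0.24 ± 0.05, adjusted p = 0.0164, and 0.0504 without pan RNAi replicate 2). eIF2Bbeta was at 9.49, 9.46 and 9.32 with pan RNAi and at 9.59, 9.65 and 9.73 in Yki arrays (−0.23 ± 0.06, adjusted p = 0.037). The catalytic subunit genes did not pass the test. eIF2Bgamma was at 9.16, 9.20 and 9.21 with pan RNAi and at 9.25, 9.14 and 9.19 in Yki arrays (95% confidence interval of the change −0.12 to 0.11), and eIF2Bepsilon was at 8.46, 8.51 and 8.43 with pan RNAi and at 8.63, 8.47 and 8.52 in Yki arrays (−0.20 to 0.06).

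The difference between eIF2Bdelta and the other subunits was also present inside single arrays, where an offset shared by all genes of an array plays no part. The log2 difference of eIF2Bdelta minus the mean of the other 4 subunits was 0.39, 0.29 and 0.44 in pan RNAi arrays and −0.10, 0.04 and −0.22 in Yki arrays, a shift of 0.47. Against single subunits the shift was 0.57 for eIF2Balpha, 0.56 for eIF2Bbeta, 0.40 for eIF2Bepsilon and 0.33 for eIF2Bgamma. In each case the lowest pan RNAi array was above the highest Yki array. These differences were chosen after the values were seen and carry no test. In the RefSeq annotation 6 of the 9 called genes overlap another gene, and the strand that the features measure was not examined. eIF2Bdelta overlaps Mtmr6, which changed by 0.01 ± 0.04 (adjusted p = 0.915), and eIF2Bbeta overlaps CG2680 (0.09 ± 0.13, adjusted p = 0.644). The partners of eIF2beta, eIF2Balpha and eIF5 were not analysed here.

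**Figure D3:**
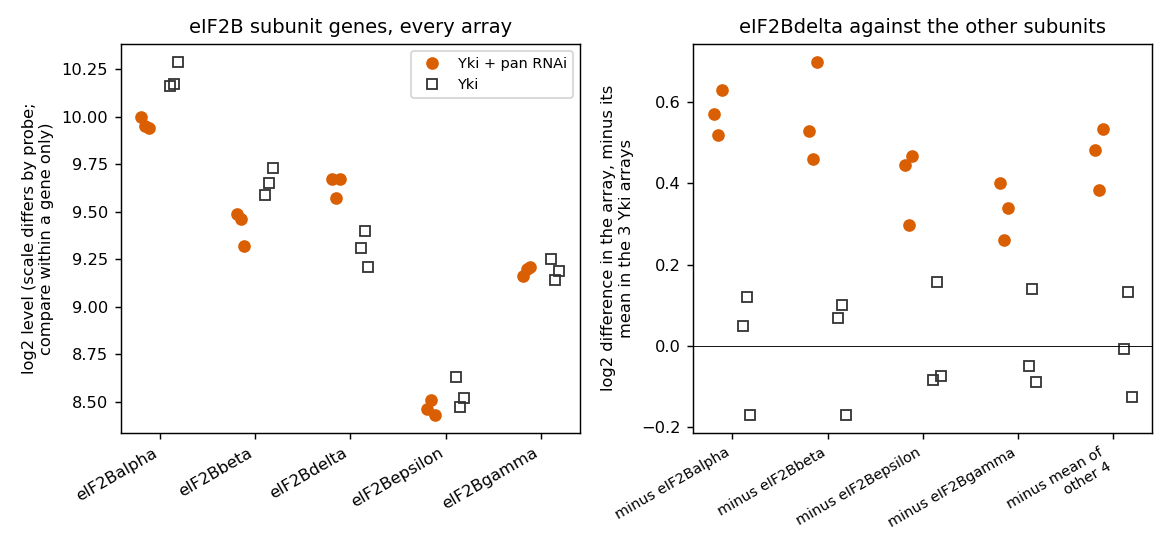
Left, log2 level of the 5 eIF2B subunit genes in every array, filled circles for pan RNAi and open squares for Yki. Right, log2 difference of eIF2Bdelta from each other subunit, and from the mean of the other 4, within each array, minus the mean of that difference in the Yki arrays; all pan RNAi arrays lie above all Yki arrays, with shifts of 0.33 to 0.57.

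Of the 14 eIF3 genes, 2 fell, eIF3j and eIF3k, and 0 rose. This share of 14.3% lower is near the 13.4% of all features. An unadjusted p under 0.05 in the limma fit was found for 5 of the 14 and for 4470 of the 11303 features. eIF3j, which binds the decoding site of the small subunit, was at 10.78, 10.74 and 10.82 in pan RNAi arrays, against 11.11, 11.14 and 11.10 in Yki arrays. The groups stood far apart relative to their spread, with SDs of 0.04 and 0.02, and the gene fell 1.26-fold (−0.34 ± 0.05, adjusted p = 0.00355). eIF3k was at 10.30, 10.28 and 10.26 with pan RNAi and at 10.44, 10.49 and 10.49 in Yki arrays (−0.19 ± 0.04, adjusted p = 0.0195). It overlaps Tbp, which changed by 0.12 ± 0.05 (adjusted p = 0.111).

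The other eIF3 genes did not pass the test. eIF3a (−0.15 ± 0.05), eIF3d1 (−0.15 ± 0.05), whose product can bind the cap, and eIF3g1 (−0.16 ± 0.05) had non-overlapping groups and adjusted p-values of 0.0667, 0.0588 and 0.055. All 3 passed with dim features left out and with the trend and robust settings, and eIF3d1 and eIF3g1 also without Yki replicate 1. The remaining bright subunits eIF3b, eIF3c, eIF3e, eIF3f1, eIF3h, eIF3i, eIF3l and eIF3m had changes of −0.06 to 0.06. eIF3h, for example, was at 12.52, 12.48 and 12.53 with pan RNAi and at 12.49, 12.48 and 12.52 in Yki arrays (95% confidence interval −0.09 to 0.11). Within arrays, the log2 difference of eIF3j minus the mean of 12 other eIF3 genes was −0.97, −0.99 and −0.89 in pan RNAi arrays and −0.65, −0.64 and −0.70 in Yki arrays, a shift of −0.29. The same shift was −0.13 for eIF3k. eIF3g2, a paralogue of eIF3g1, was dim, with a mean of 6.40 ± 0.22 in pan RNAi arrays and 6.25 ± 0.09 in Yki arrays (SD, n = 3 each).

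None of the 7 eIF4 genes passed the test in limma, and 0 had an unadjusted p under 0.05. Of all features, 25.5% passed, and 4470 of 11303 had an unadjusted p under 0.05. The difference from these shares was not tested. The cap-binding protein gene eIF4E1 was at 12.92, 12.89 and 12.90 in pan RNAi arrays and at 12.94, 12.91 and 12.92 in Yki arrays. The groups overlapped, and the 95% confidence interval of the change was −0.12 to 0.08. The helicase gene eIF4A was at 13.38, 13.37 and 13.23 with pan RNAi and at 13.34, 13.32 and 13.29 in Yki arrays. The highest value in the data is 14.06, and close to that ceiling arrays can understate differences. The scaffold gene eIF4G1 was the eIF4 member with the lowest p, at 12.12, 12.19 and 12.20 with pan RNAi and at 12.32, 12.25 and 12.24 in Yki arrays (−0.10 ± 0.05, adjusted p = 0.189). Its paralogue eIF4G2 (0.04 ± 0.05), the helicase cofactor gene eIF4B (−0.07 ± 0.07), the translational repressor gene eIF4EHP (−0.01 ± 0.04) and the dim eIF4E4 (0.10 ± 0.12) overlapped between groups.

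Other genes of translation were counted in 6 lists by role, with 57 genes measured in all. Of these 9 rose and 7 fell, a share of 28.1%, against 25.5% of all features. Over all features, 12.1% rose and 13.4% fell, or 18.5% and 9.61% with centred arrays, and the lists were not tested against each other. In the TOR pathway, 5 of 17 rose and 0 fell, with a median of 0.11, and in the list of cap complex partners 3 of 11 rose and 0 fell, with a median of 0.09. Of the other lists, that of termination, recycling and reinitiation had 3 falls among 8 genes, with kra, a relative of eIF5, among the 3. Of 8 mitochondrial translation factors 3 fell. In either list 0 rose, and the medians were −0.12 and −0.19. All features had a median of 0.03. The 9 rises became 3 without Yki replicate 2, 3 without Yki replicate 3, 3 without pan RNAi replicate 1 and 4 without pan RNAi replicate 2, and 15 with centred arrays, and the 7 falls became 4 without Yki replicate 3 and 4 without pan RNAi replicate 3. Over all features, 1369 rises became 789, 809, 765, 953 and 2086 under these settings, in the same order. The 1518 falls over all features became 1001 and 1220. Of the 5 TOR genes that rose, REPTOR and mio kept the call in all 11 alternatives.

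In the TOR list, REPTOR, a transcription factor that TOR holds inactive, was at 9.27, 9.43 and 9.29 in pan RNAi arrays and at 8.81, 8.67 and 8.82 in Yki arrays (0.56 ± 0.07, adjusted p = 0.00219). mio, a subunit of the GATOR2 complex that activates TOR, rose by 0.28 ± 0.05 (adjusted p = 0.00797), and Lst8, a subunit of the TOR complexes, by 0.19 ± 0.05 (adjusted p = 0.034, with a call in 5 of the 11 alternatives). Sesn, a stress-induced inhibitor of TOR, was at 8.55, 8.11 and 8.09 with pan RNAi and at 7.91, 7.40 and 7.31 in Yki arrays. Its rise of 0.71 ± 0.19 (adjusted p = 0.034) was the largest of the list and had the widest spread. The call was made in 7 of the 11 alternatives. The adjusted p in limma ran from 0.00446, with the replicate block, to 0.1. The genes that rose thus include both activators and an inhibitor of TOR. mTor itself changed by −0.04 ± 0.05 (adjusted p = 0.557). Among cap complex partners, larp (0.15 ± 0.04), which encodes an RNA-binding partner of the poly(A)-binding protein, the repressor gene brat (0.24 ± 0.06) and the dim repressor gene nanos (0.26 ± 0.08) rose, with adjusted p-values of 0.0349, 0.035 and 0.0469. Each of these 3 lost the call in most alternatives, and pAbp, the poly(A)-binding protein gene, changed by 0.03 ± 0.04.

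**Figure D4:**
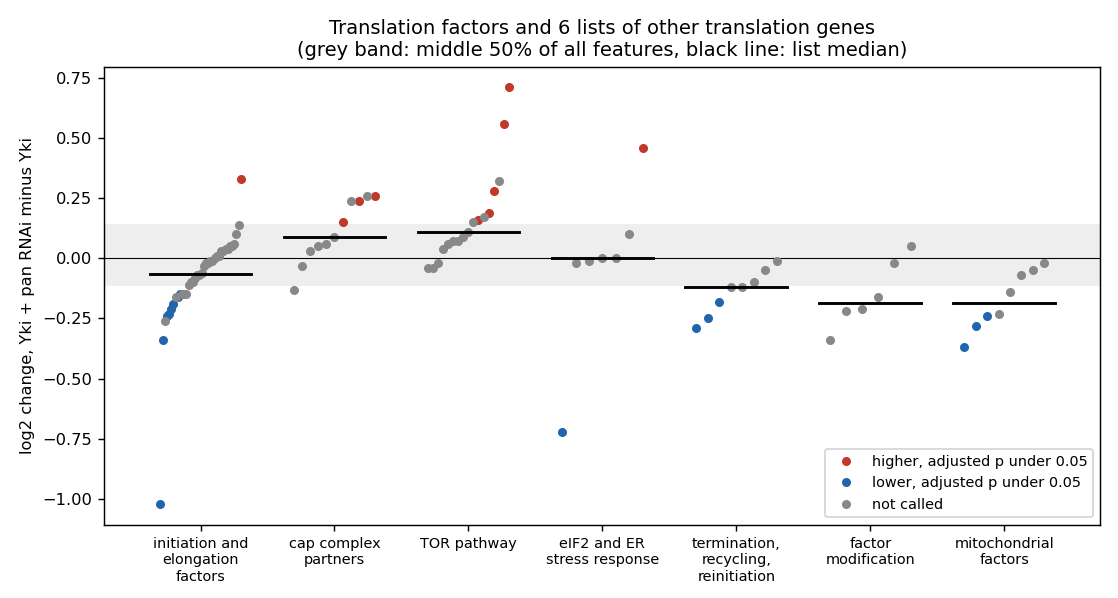
Log2 change in pan RNAi discs relative to Yki discs for the 38 initiation and elongation factor genes and for the measured genes of 6 other translation lists, each point a gene and each black line a list median. The medians run from −0.19 for mitochondrial factors to 0.11 for the TOR pathway.

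The list of 8 genes of termination, recycling and reinitiation also holds kra, a relative of eIF5 that binds eIF2. This gene was at 12.27, 12.35 and 12.38 in pan RNAi arrays and at 12.55, 12.59 and 12.60 in Yki arrays (−0.25 ± 0.05, adjusted p = 0.0118). The release factor gene eRF1 (−0.18 ± 0.04, adjusted p = 0.0247) and the reinitiation factor gene DENR (−0.29 ± 0.07, adjusted p = 0.0252) fell as well, with calls in 3 and 5 of the 11 alternatives. MCTS1, the partner of DENR, changed by −0.10 ± 0.05 (adjusted p = 0.209). Of the mitochondrial factors, the recycling factor gene mRRF1 was at 7.36, 7.46 and 7.53 with pan RNAi and at 7.77, 7.82 and 7.86 in Yki arrays (−0.37 ± 0.06, adjusted p = 0.00544). The initiation factor gene mIF3 (−0.28 ± 0.05) and the elongation factor gene mEFTs (−0.24 ± 0.05) also fell. The list of the eIF2 and endoplasmic reticulum stress response had 1 rise and 1 fall among 7, while 12.1% of all features rose and 13.4% fell. Irbp18, a transcription factor gene, rose (0.46 ± 0.08, adjusted p = 0.00754), and Hsc70-3, the chaperone BiP of the endoplasmic reticulum, fell 1.65-fold (−0.72 ± 0.10, adjusted p = 0.00432). The eIF2 kinase genes Gcn2 (−0.02 ± 0.07) and PEK and the transcription factor gene crc, the fly ATF4, did not pass (adjusted p = 0.85, 0.994 and 0.976). Of 6 genes that modify eEF2 or eEF5, 0 passed the test in limma, against 25.5% of all features. An unadjusted p under 0.05 was found for 2 of the 6 and for 4470 of the 11303 features. Among the 2 was nero, the hydroxylase of eEF5 (−0.21 ± 0.07, adjusted p = 0.071).

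**Figure D5:**
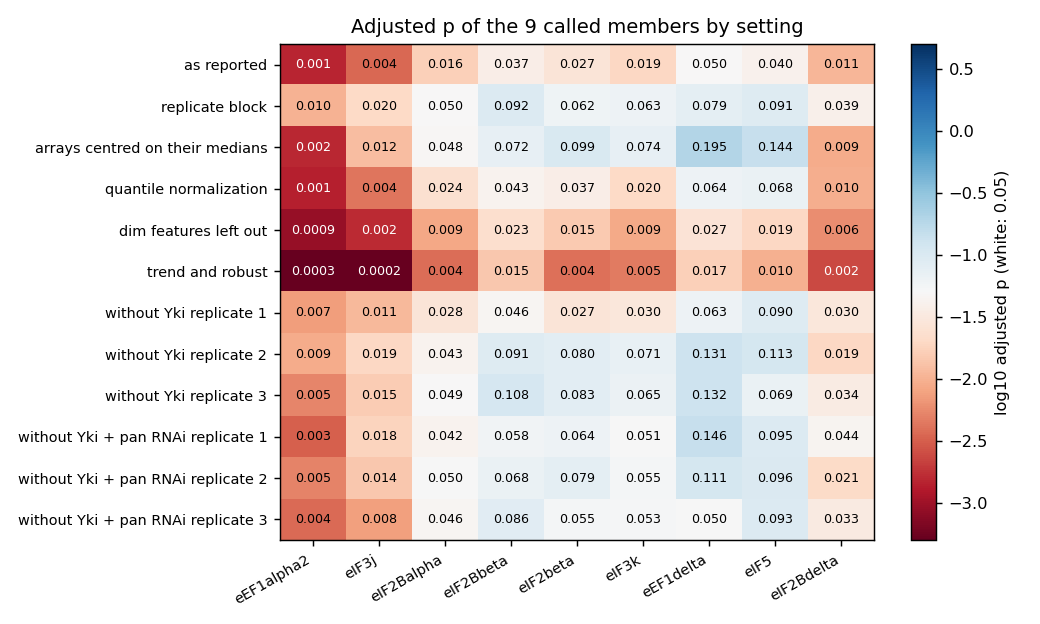
Adjusted p of the 9 called genes (columns) as reported and under 11 alternative settings (rows), coloured by its log10, red below and blue above 0.05. eEF1alpha2, eIF3j and eIF2Bdelta stay below 0.05 in every row, with highest values of 0.0102, 0.0198 and 0.0439.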

How the data were processed

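The authors deposited log2 expression levels of 11325 features in 2 tables that differ by at most 5.0e-09. The expression matrix was used here. Per the labels, samples were analysed at gene level with limma. The background correction, the normalization and the summary over probes are details the sources used here do not give. Every feature reaches at least 5.91 in 3 arrays.

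Features were named from the platform annotation where it gave 1 symbol (10156 features, 313 with several, 856 with none). Symbols were updated through Entrez numbers in a RefSeq gene table (assembly Release 6 plus ISO1 MT), used for names and overlaps only. A gene with several features was represented by the brightest, which left 11303. Groups, from the sample titles, were compared with limma 3.58.1 in R 4.3.3 (lmFit, eBayes, no covariate), with Benjamini-Hochberg adjustment over all 11303 features. The code was tested on simulated data. Nothing states that samples came from separate crosses, so p-values may measure technical spread alone.

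All members are accounted for; levels in every array are given for called members and for the member with the lowest p of each factor with no call. Up to 3 called genes per list, by lowest p, or the 1 with the lowest p are named. Other values by array and other list genes were chosen after their values were seen. The members, the 6 translation lists and the 6 marker lists were chosen with earlier results of these data known. Current symbols were used for 5 listed genes (mTor, Rack1, HBS1, nanos and dysf). Alternatives were a replicate block, 2 other scalings, a filter at a mean of 7, other variance settings and each array left out (11 settings). The second deposited table and every feature kept were also run and are not counted among the 11.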

Additional observations from a re-analysis of the deposited data

How the results depend on the processing

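The deposited log2 values limit what can be said of dim genes and of genes near the top of the range, and small changes of bright genes passed or missed the threshold with small shifts in scaling or in the arrays used. With the second deposited table and with every feature kept, all counts were as reported. The member count of 8 falls became 3 with a replicate block, 3 with arrays centred on their medians and 13 with the trend and robust settings, and 2 to 8 with 1 array left out. The count of 1 rise did not change under these settings. Over all features, 1518 falls became 1175, 1086, 1735 and 979 to 1282 in the same order. The 1369 rises over all features became 984, 2086, 1516 and 765 to 1153. With a 2-fold minimum the members had 1 fall and 0 rises, and the other translation genes 0 of each. Deviations of same-numbered arrays of the 2 groups correlated at −0.127, −0.098 and 0.162, against −0.281 to 0.345 for differently numbered arrays. The labels do not say whether the numbers pair the samples, and these values do not settle it. The replicate block used fewer degrees of freedom. It lowered the SE of some genes, as for Sesn (0.188 to 0.0535), and raised that of others, as for eIF3j (0.0452 to 0.0534). The median change of the members, −0.07, was −0.01 with centred arrays, where that of all features was 0.09 in place of 0.03, −0.03 with quantile normalization and −0.07 to −0.04 with 1 array left out. Of the other translation genes, 9 rises became 5 with the replicate block, 15 with centred arrays and 3 to 8 with 1 array left out, with 3 each without Yki replicate 2, Yki replicate 3 and pan RNAi replicate 1. Their 7 falls became 11 with dim features left out, 11 with the trend and robust settings and 4 to 7 with 1 array left out, with 4 without Yki replicate 3 and 4 without pan RNAi replicate 3. Of the 16 called among them, 7 kept the call in every alternative. The sign turned only for small changes that were not called. With centred arrays these were eIF2Bgamma (0.05), eIF3b (0.03), eIF3e (0.04), eIF4E1 (0.03), eIF4EHP (0.04) and eIF6 (0.03), and with quantile normalization eIF2Bgamma (0.02), eIF3b (0.03) and eIF4EHP (0.02). With 1 array left out, eIF2Bgamma ran from −0.03 to 0.02, eIF4A from −0.01 to 0.06, eIF6 from −0.06 to 0.01 and eIF3e from −0.05 to 0.04. Centring moved the change of every gene by the same amount. The cause of the other shifts was not tested.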

Other observations

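Other gene families of protein synthesis and turnover were taken by symbol and set beside the initiation and elongation factors, with no test of a difference. Only genes with a named feature were counted, and how much of each family they cover was not examined. Of 39 cytoplasmic ribosomal protein genes 8 fell and 0 rose (20.5% lower, median −0.08), close to the 21.1% and −0.07 of the factors. Of 28 aminoacyl-tRNA synthetase genes 6 fell and 0 rose (21.4%, median −0.12). The shares were larger for 68 mitochondrial ribosomal protein genes, of which 31 fell (45.6%, median −0.19), and for 32 proteasome genes, of which 22 fell (68.8%, median −0.24). Among all features 13.4% fell, with a median change of 0.03. In this range the mitochondrial translation factors, with 3 of 8 lower and a median of −0.19, had the same median as the mitochondrial ribosomal proteins.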
